A study of Mus musculus with 13 samples.

Results

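The 35 genes described here serve DNA replication (16 genes) or mitosis (19 genes) and were measured in blood-forming stem and progenitor cells sorted from c-Cbl mutant and control mice. They were chosen by gene symbol for their known function, and each was read from its brightest probe among the 29453 genes and unnamed probes of the series. A probe could be named for 33 of them. Of these, 29 were tested (16 replication and 13 mitosis genes), because their probe was detected above the negative controls (detection p under 0.01) on at least 2 of the 13 arrays. The signal of 27 of these 29 was detected on all 13 arrays, so the detection rule did not select them for a difference between groups. Mki67 and Ccnb1 were not analysed here. The probes of Ccnb2, the B-type cyclin of mitosis, Bub1, a spindle checkpoint kinase, and Hmmr, a spindle assembly factor, were detected on 0 arrays. The probe of Kif20a, a cytokinesis motor, was detected on 1 array, the +/+ LTHSC, at 5.92 on the log2 scale.

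Each sample was 1 Illumina bead array hybridised with amplified RNA of a population sorted from mice of C57BL/6 background. The c-Cbl gene encodes an E3 ubiquitin ligase that tags activated receptor tyrosine kinases for degradation. Its genotypes were -/-, with both alleles lost, A/-, with an allele that the labels write as A opposite a lost one, and +/+, the control. The labels do not define A, and they give neither the sex or age of the mice nor the number pooled. All populations were lineage-negative and c-Kit+. Long-term stem cells (LTHSC, CD34- Flt3-), short-term stem cells (STHSC, CD34+ Flt3-) and multipotent progenitors (MPP, CD34+ Flt3+) were also Sca1+ and are called LSK cells below. Common myeloid progenitors (CMP, CD34+ CD16/32-), granulocyte-macrophage progenitors (GMP, CD34+ CD16/32+) and megakaryocyte-erythroid progenitors (MEP, CD34- CD16/32-) were Sca1- and are called committed progenitors. Each of the 6 populations had 1 A/- and 1 +/+ array, and LTHSC had 1 further -/- array.

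Replication is licensed when the origin recognition complex and Cdc6 load a ring of Mcm proteins, the helicase, on DNA. Cyclin E and the Dbf4-dependent kinase then start the helicase together with Cdc45, the clamp Pcna holds the polymerases on DNA, and ribonucleotide reductase (Rrm1, Rrm2), Tyms and Tk1 supply the nucleotides. In mitosis, Cdk1 with its cyclins, the Aurora and polo-like kinases and kinesin motors build the spindle, and Cdc20 and Ube2c direct the destruction of cyclins that ends it. Long-term stem cells are known to divide rarely, and progenitors to divide often. E2F factors are known to control many replication genes, whereas many mitosis genes are known to be controlled through CCAAT boxes, bound by NF-Y, and CHR elements, bound by the DREAM and MuvB complexes.

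Before normalisation the 3 LTHSC arrays had median probe signals of 51.7 to 52.9, and those of the remaining 10 arrays were 148.3 to 191, so LTHSC and this set of arrays cannot be told apart. Between 30.4% and 38.0% of the probes were detected per array. In each of the 6 pairs A/- cells gave the dimmer array, with a ratio of mean signals between 0.654 and 0.957. All 13 arrays were brought to equal quantiles, so each value below is a log2 signal relative to the other transcripts of its array, and a difference in total RNA per cell is not seen. In bulk RNA, fewer dividing cells and less of a transcript per dividing cell cannot be told apart. With 1 array per genotype and population, p-values measure only the spread between these arrays, which the labels do not tie to separate mice. Stem cell markers had their highest medians on the 3 LTHSC arrays (8.92 to 9.40), erythroid markers on the MEP arrays (11.91 in A/- and 11.68 in +/+), and markers of granulocyte-monocyte progenitors on the GMP arrays (11.46 in A/- and 12.19 in +/+). The Flt3 probe was detected on 0 arrays, including MPP, and no probe was named Ly6a (Sca1). Cd34 lay between 10.01 and 10.21 on the LTHSC arrays, which were sorted as CD34-. On the STHSC arrays, sorted as CD34+, it was lower, at 9.08 in A/- and 9.20 in +/+. Markers of mature neutrophils, a cell type that the sort removes, had medians between 9.65 and 12.74 on the 7 LSK arrays. In committed progenitors they had medians between 4.98 and 5.22 in A/- cells and between 6.56 and 11.24 in +/+ cells. Their part in the results below was not tested.

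The promoter windows of replication and mitosis genes held these elements in different shares, which were counted and not tested. RefSeq promoter windows of build GRCm38.p6, 250 bases before to 50 bases after a start site, were found for 14 of 16 replication genes (16 windows) and 15 of 19 mitosis genes (15 windows). The motifs searched, on both strands, were CCAAT, CHR as TTTGAA or TTCGAA, and E2F as TTGGCGC or TTCCCGC or TTGCCGC or TTCGCGC. An E2F motif was in 10 of the 16 replication windows, 4 of the 15 mitosis windows and 9.57% of all 32851 windows. A CHR motif was in 3 replication windows, 12 mitosis windows and 19.2% of all windows. CCAAT was in 12 replication windows, 13 mitosis windows and 37.4% of all windows. The replication genes Mcm7 and Uhrf1 had 2 windows each, which all held an E2F motif and CCAAT and were counted apart. In 2 of the 31 member windows a CCAAT match shared bases with an E2F match. These matches describe letters in a window and were not tested for binding. The 250 bases before the start are shown 5′ to 3′ on the gene's strand, with matches in capitals, for members with large changes between populations, Ccne1 at chr7:38107491-38107740 (minus strand), Cdc6 at chr11:98907901-98908150 (plus strand), Rrm2 at chr12:24708004-24708253 (plus strand) and Ube2c at chr2:164769679-164769928 (plus strand). For contrast they are shown for Mcm6 at chr1:128359706-128359955 (minus strand) and Cdc20 at chr4:118437344-118437593 (minus strand). Mcm6 has 4 E2F matches, which overlap in pairs. Cdc20 has 1 CHR match 18 bases before the start between 2 CCAAT matches. The Ccne1 stretch holds 0 matches, Cdc6 holds 1 E2F match, and Rrm2 holds 1 E2F and 1 CCAAT match. Ube2c holds 6 CCAAT matches, with an overlapping pair among them, and 1 CHR match.
Ccne1: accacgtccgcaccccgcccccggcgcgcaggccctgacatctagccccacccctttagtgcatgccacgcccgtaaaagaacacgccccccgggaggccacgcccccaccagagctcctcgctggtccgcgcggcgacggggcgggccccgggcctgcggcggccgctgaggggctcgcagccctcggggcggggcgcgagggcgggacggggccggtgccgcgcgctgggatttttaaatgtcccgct
Cdc6: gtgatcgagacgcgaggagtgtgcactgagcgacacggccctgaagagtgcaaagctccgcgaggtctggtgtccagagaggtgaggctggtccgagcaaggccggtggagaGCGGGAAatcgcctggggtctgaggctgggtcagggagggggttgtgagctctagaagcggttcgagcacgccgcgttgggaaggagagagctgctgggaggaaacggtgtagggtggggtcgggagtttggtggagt
Rrm2: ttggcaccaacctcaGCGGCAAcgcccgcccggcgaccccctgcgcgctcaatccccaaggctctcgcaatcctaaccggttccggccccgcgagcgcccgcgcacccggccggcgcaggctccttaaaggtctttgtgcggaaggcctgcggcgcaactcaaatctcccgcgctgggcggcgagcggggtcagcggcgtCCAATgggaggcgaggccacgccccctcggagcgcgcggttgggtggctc
Ube2c: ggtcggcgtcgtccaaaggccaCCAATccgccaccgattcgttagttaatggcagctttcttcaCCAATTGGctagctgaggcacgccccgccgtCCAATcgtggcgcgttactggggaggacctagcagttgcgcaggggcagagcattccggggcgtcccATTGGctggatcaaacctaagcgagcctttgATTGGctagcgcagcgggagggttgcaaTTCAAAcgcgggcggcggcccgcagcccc
Mcm6: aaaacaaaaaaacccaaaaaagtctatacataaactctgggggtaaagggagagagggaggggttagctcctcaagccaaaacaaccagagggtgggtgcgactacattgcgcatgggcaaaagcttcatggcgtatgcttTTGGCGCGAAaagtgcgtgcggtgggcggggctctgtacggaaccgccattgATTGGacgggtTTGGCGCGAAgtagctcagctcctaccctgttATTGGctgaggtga
Cdc20: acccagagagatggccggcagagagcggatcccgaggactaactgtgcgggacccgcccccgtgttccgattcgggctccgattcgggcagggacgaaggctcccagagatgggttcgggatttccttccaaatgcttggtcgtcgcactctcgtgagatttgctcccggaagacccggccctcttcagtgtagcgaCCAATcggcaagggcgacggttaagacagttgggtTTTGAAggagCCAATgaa

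**Figure D1:**
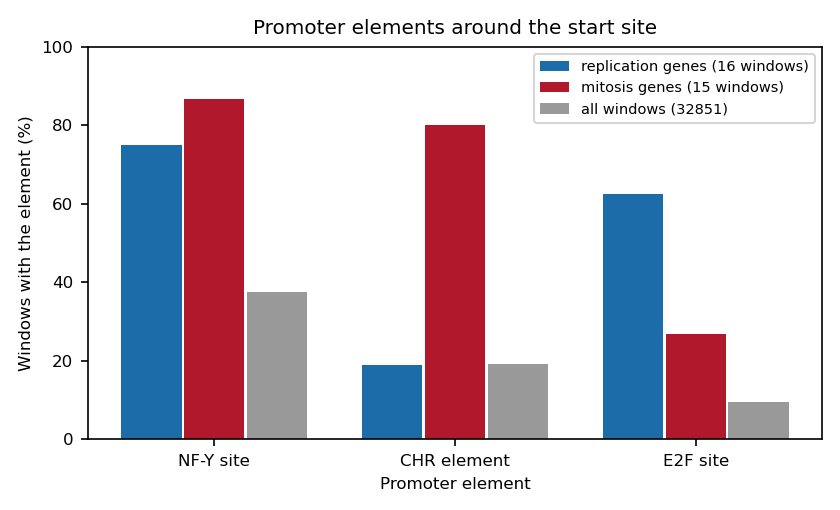
Share of promoter windows (%, y axis) that hold a CCAAT box (NF-Y site), a CHR element or an E2F site (x axis), for replication genes, mitosis genes and all windows. The CHR element is in 12 of 15 mitosis windows and 3 of 16 replication windows, and the E2F site in 4 and 10 of them.

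Across populations most members were lowest in LTHSC and highest in MEP. Taking the mean of the A/- and +/+ arrays, 24 of 29 members (82.8%) were lowest in LTHSC, as were 24.8% of all 12807 features tested, and 21 (72.4%) were highest in MEP, as were 35.5% of all features. Replication and mitosis genes shared this order: 14 of 16 and 10 of 13 were lowest in LTHSC, and 12 of 16 and 9 of 13 were highest in MEP. Both LTHSC arrays lay below all 10 arrays of the other populations for 15 members, 9 of replication and 6 of mitosis, a pattern that 11.9% of all features had. Both MEP arrays lay above all 10 others for 15 members, 7 of replication and 8 of mitosis, as for 20.6% of all features. After centring each gene on its mean, the median over the 16 replication genes was -0.43 in -/-, -0.58 in A/- and -0.42 in +/+ LTHSC. The same median was 0.40 in both MEP arrays. For the 13 mitosis genes the medians were -0.39 in -/-, -0.59 in A/- and -0.39 in +/+ LTHSC, against 0.51 in A/- and 0.43 in +/+ MEP. On the other 8 arrays the medians of both groups stayed between -0.11 and 0.23, between those of LTHSC and MEP.

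**Figure D2:**
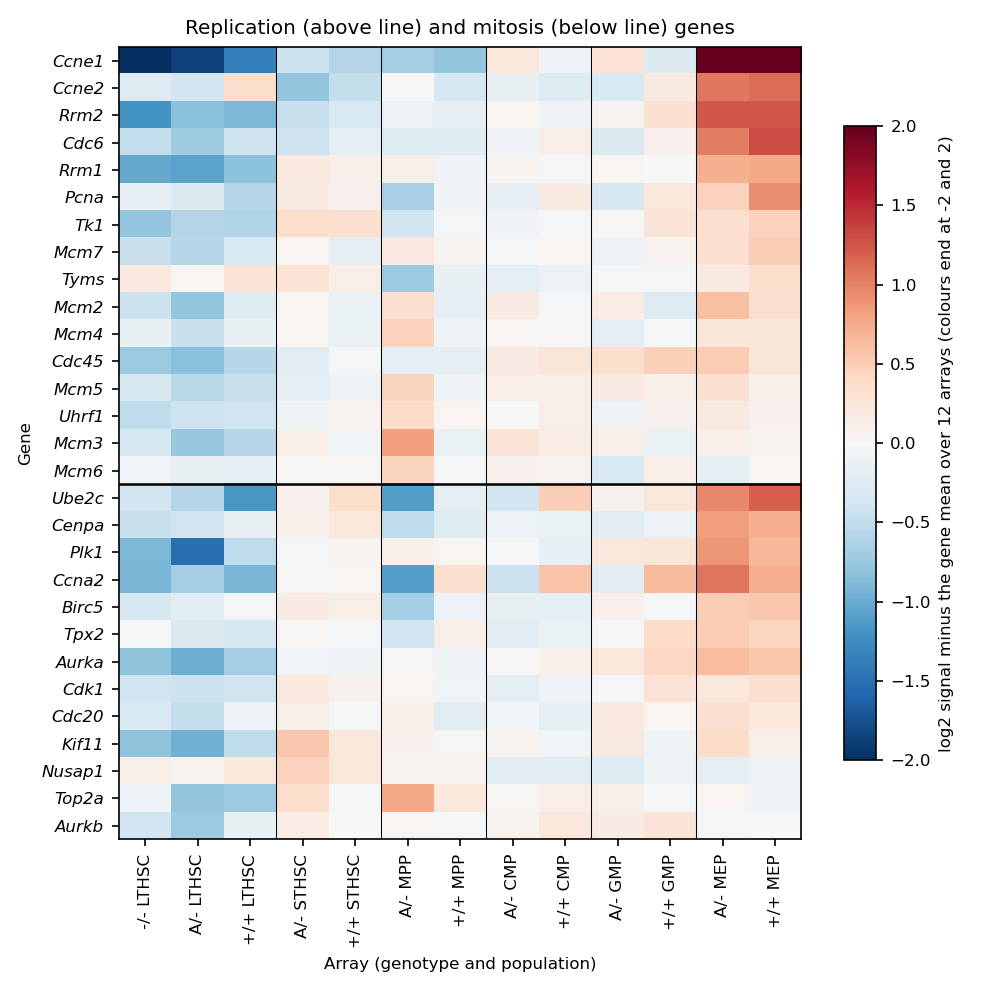
Normalised log2 signal of the 29 tested genes (rows) on the 13 arrays (columns), as the difference from each gene's mean over the 12 A/- and +/+ arrays. LTHSC columns are mostly blue (low), and MEP columns mostly red (high), with Mcm3, Mcm6, Uhrf1, Nusap1, Top2a and Aurkb near white in MEP.

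The span between the highest and lowest population differed widely among members. Ccne1, the cyclin that takes cells into S phase, had the widest span, 4.39 on the log2 scale between MEP and LTHSC. Rrm2, the regulated subunit of ribonucleotide reductase, spanned 2.10, and Ube2c, the ubiquitin-conjugating enzyme of the anaphase-promoting complex, spanned 1.95. Mcm6, a helicase subunit, spanned 0.37, and Cdc20, the activator of the same complex, spanned 0.54. The median span was 0.995 for replication genes, 1.13 for mitosis genes and 1.03 for all features tested. The members' spans were thus close to those of other transcripts.

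In MEP, set against CMP, 14 of 29 members rose and 0 fell, where 14.4% of all features rose and 18.1% fell (limma, Benjamini-Hochberg adjusted p under 0.05, A/- and +/+ arrays together, n = 2 arrays per population). The largest change was that of Ccne1, which was at 10.83 in A/- and 10.79 in +/+ MEP, against 8.27 in A/- and 7.95 in +/+ CMP and rose by 2.70 on the log2 scale (SE 0.25, adjusted p = 6.24e-05). Its levels on the other arrays were 8.32 and 7.76 in A/- and +/+ GMP, 7.34 and 7.27 in MPP, 7.61 and 7.46 in STHSC, and 5.27, 6.17 and 6.66 in -/-, A/- and +/+ LTHSC. Both MEP arrays thus stood more than 2 log2 units above the brightest of the other arrays, and CMP and GMP did not separate from each other.

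Ccne2, the second E-type cyclin, was at 8.89 in A/- and 8.96 in +/+ MEP, against 7.69 and 7.58 in A/- and +/+ CMP (change 1.29, SE 0.28, adjusted p = 0.00612). Cdc6, the helicase loader, was at 11.91 and 12.18 in A/- and +/+ MEP, against 10.799 and 11.0025 in A/- and +/+ CMP (change 1.14, SE 0.13, adjusted p = 0.000204). Rrm2 was at 10.89 in both MEP arrays, against 9.69 and 9.55 in A/- and +/+ CMP (change 1.27, SE 0.16, adjusted p = 0.000283). For each of these 3 genes the MEP arrays lay above all other arrays. Rrm1, the large subunit of the same reductase, rose by 0.71, Pcna, the sliding clamp, by 0.69 and Tk1, thymidine kinase, by 0.43.

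None of the 6 helicase genes passed the test against CMP. The changes of Mcm2 (0.39), Mcm3 (-0.13), Mcm4 (0.21), Mcm5 (0.07), Mcm6 (-0.15) and Mcm7 (0.42) had adjusted p between 0.0514 (Mcm7) and 0.763 (Mcm5). Those of Mcm7 and Mcm2 were close in size to the changes of Tk1 and Cdk1, which passed. Cdc45, which completes the helicase, had a change of 0.17 and Uhrf1, which carries DNA methylation through replication, one of 0.07, also without passing. Tyms, which makes thymidylate, was at 0.41 (adjusted p = 0.0865).

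Among mitosis genes, Cenpa, the centromere histone, was at 14.87 in A/- and 14.75 in +/+ MEP, against 13.93 and 13.91 in A/- and +/+ CMP (change 0.89, SE 0.11, adjusted p = 0.000328). Ube2c was at 7.88 and 8.11 in A/- and +/+ MEP, against 6.54 and 7.41 in A/- and +/+ CMP (change 1.02, SE 0.35, adjusted p = 0.0492). Both MEP arrays exceeded both CMP arrays for each gene, but Ube2c varied between the CMP arrays by nearly as much as it changed. Plk1, the polo-like kinase of mitotic entry, rose by 0.85, Birc5 (survivin), a chromosomal passenger protein, by 0.69, Tpx2, a spindle factor that activates Aurora A, by 0.65, Aurka, Aurora A itself, by 0.53 and Cdk1 by 0.42. Top2a, which untangles sister DNA, had a change of -0.11 and Aurkb, the Aurora kinase of the passenger complex, one of -0.15, and neither passed (adjusted p = 0.678 and 0.550). Ccna2, the cyclin of S phase and early mitosis (0.82), Cdc20 (0.39), Kif11, the motor that separates spindle poles (0.25), and Nusap1, a microtubule-bundling protein (0.08), did not pass either.

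Against GMP, 9 members rose and 0 fell in MEP, where 15.1% of all features rose and 18.1% fell. They were Ccne1 (2.77), Cdc6 (1.26), Ccne2 (1.15), Rrm2 (1.05), Cenpa (0.94), Pcna (0.75), Rrm1 (0.70), Birc5 (0.49) and Mcm7 (0.43). In GMP, Cdc6 was at 10.59 in A/- and 10.97 in +/+, Rrm2 at 9.72 and 9.95, and Cenpa at 13.82 and 13.92. These values lay below both MEP arrays. The MEP arrays are shared with the comparison against CMP. Ccne1, Cdc6, Rrm2, Rrm1 and Cenpa passed both comparisons under each of the 14 alternative settings tried. Of the 14 members called against CMP, 6 had further detected probes, and 9 of 9 such probes had the same sign. In the same comparison 15 of 17 erythroid markers rose, with a median change of 2.86, and 11 of 13 markers of granulocyte-monocyte progenitors fell. Neutrophil markers had a median of 5.22 on the A/- MEP array and 11.24 on the +/+ MEP array. Without the +/+ MEP array 9 members rose against CMP, and without the A/- MEP array 6 rose. It was 7 without the A/- CMP array and 5 without the +/+ CMP array. Against GMP 5 rose without the A/- MEP array or without the A/- GMP array. Scaling arrays on their 75th percentile moved the median change of all features to 0.31 against CMP and 0.30 against GMP, and 24 and 19 members were then called higher.

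**Figure D3:**
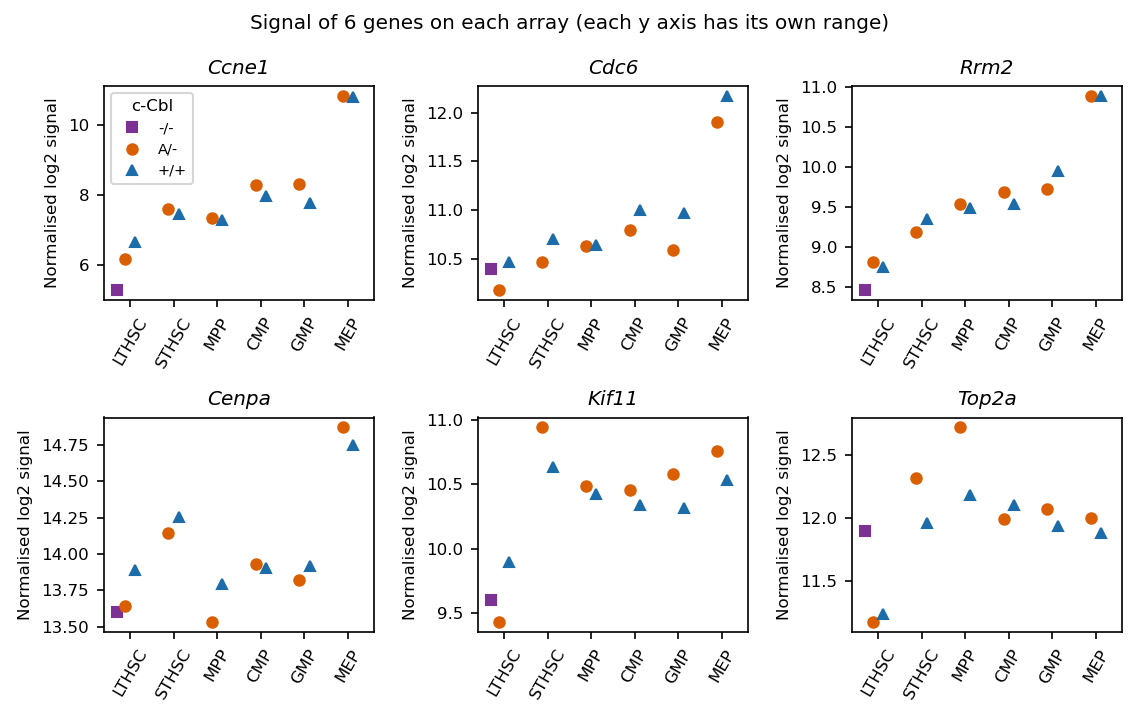
Normalised log2 signal (y axis) of Ccne1, Cdc6, Rrm2, Cenpa, Kif11 and Top2a on each array by population (x axis), with squares for -/-, circles for A/- and triangles for +/+. The MEP points are highest for Ccne1, Cdc6, Rrm2 and Cenpa, the LTHSC points lowest for Kif11, and the A/- MPP point highest for Top2a.

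Genes of 7 further pathway lists were counted in MEP against CMP, where 14.4% of all features rose and 18.1% fell. Of 19 tested genes of origin licensing and firing, 10 rose and 0 fell, with a median change of 0.45, set against 0.03 for all features. They included Recql4 (1.53, SE 0.22, adjusted p = 0.000615 by limma), a helicase needed for origin firing, and Orc5 (1.45) and Orc1 (1.45), subunits of the origin recognition complex. Orc2, a further subunit among the 10, was detected on both MEP arrays and on neither CMP array, at least 1.89-fold higher in MEP. Without the MEP arrays it would not have passed the detection rule. Of 25 genes of the fork and nucleotide supply, 5 rose and 1 fell. Dut, which removes dUTP, rose by 0.80, and Prim2, the primase subunit, by 0.74, while Pclaf, a Pcna-binding protein, fell by 0.89. Of 16 E2F and DREAM regulators, 5 rose and 0 fell, among them E2f2 (1.61), E2f4 (1.44) and Rb1 (1.13), the retinoblastoma protein that restrains E2Fs.

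Against the same 14.4% of all features higher and 18.1% lower, 7 of 27 kinetochore and checkpoint genes rose and 0 fell in MEP, led by Zwilch (1.08), which helps to recruit dynein to kinetochores, and Nsl1 (0.97). Of 18 condensin and cohesin genes, 4 rose and 0 fell, led by Smc2 (1.39), a condensin subunit, and Wapl (1.25), which releases cohesin. Of 17 genes of mitotic entry and exit, 4 rose and 0 fell. Spindle and cytokinesis genes split, with 4 of 19 higher and 2 lower. Aspm, a spindle pole protein, rose by 1.28 and Kif18a, a kinesin, by 0.86. Cep55, which recruits the machinery of final cell separation, was at 4.58 in A/- and 6.49 in +/+ MEP, against 8.69 and 8.56 in A/- and +/+ CMP, and fell by 3.09 (SE 0.45, adjusted p = 0.000715). It was detected on 1 of the 2 MEP arrays and not on the A/- one. Kif23, a midzone kinesin, fell by 0.56 on its brightest probe, but the mean of its detected probes changed by 0.03. Cep55 fell under each of the 14 alternative settings, by an amount that ran from -3.96 to -1.62 and rests on a low signal.

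The step between LTHSC and STHSC raised 10 members and lowered 0 in STHSC, where 5.65% of all features rose and 5.51% fell (limma, n = 2 arrays per population). The changes of 28 of 29 members were above 0, with a median of 0.48 against 0.01 for all features. Kif11 was at 10.94 in A/- and 10.63 in +/+ STHSC, against 9.43 and 9.89 in A/- and +/+ LTHSC (change 1.13, SE 0.19, adjusted p = 0.0106). Rrm1 was at 12.22 and 12.12 in A/- and +/+ STHSC, against 10.95 and 11.21 in A/- and +/+ LTHSC (change 1.09, SE 0.13, adjusted p = 0.00486). Tk1 was at 12.29 and 12.25 in A/- and +/+ STHSC, against 11.35 and 11.33 in A/- and +/+ LTHSC (change 0.93, SE 0.13, adjusted p = 0.00617). In these 3 genes the STHSC arrays lay above the LTHSC arrays by more than the A/- and +/+ arrays of either population differed.

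Plk1 was at 11.51 in A/- and 11.60 in +/+ STHSC, against 10.04 and 11.03 in A/- and +/+ LTHSC, and rose by 1.02 (SE 0.25, adjusted p = 0.0356). The A/- minus +/+ difference of its LTHSC arrays was -0.99, close to the size of the change between populations. Top2a was at 12.32 and 11.96 in A/- and +/+ STHSC, against 11.18 and 11.24 in A/- and +/+ LTHSC (change 0.93, adjusted p = 0.0119). Ccne1 rose by 1.12, Aurka by 0.77, Cdc45 by 0.58, Cdk1 by 0.56 and Cenpa by 0.43. Ccne2 was the member below 0, at -0.61 (adjusted p = 0.181). Of 6 further detected probes of called members, 4 had the same sign. A further Tk1 probe was at -0.44 and a further Top2a probe at -0.35, while others of these genes were at 1.35 and 0.66.

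These 10 calls rest on few arrays. Without the A/- STHSC array 0 members were called, without the +/+ STHSC array 2, and without the A/- LTHSC array 2. No member kept its call in each of the 12 alternative settings. With 75th-percentile scaling the median of all features moved to 0.23 and 26 members were called. The LTHSC arrays are those of the other intensity scale, which cannot be told apart from the population. In the same comparison 15 of 17 erythroid markers had changes above 0, with a median of 1.38 and 1 called, and their part in it was not tested. Genes of the 7 further pathway lists were called higher in counts that stand against 5.65% of all features, and 0 were called lower, against 5.51%. The counts were 7 of 17 genes of mitotic entry and exit, with Espl1 (separase) at 1.34, and 8 of 27 kinetochore and checkpoint genes. In that list Cenpf was detected on both STHSC arrays and neither LTHSC array, at least 2.22-fold higher in STHSC. They were 6 of 25 genes of the fork and nucleotide supply, with Dut at 1.36, 5 of 19 spindle genes, with Kif18b at 1.08, and 4 of 16 E2F and DREAM regulators, with Foxm1, a transcription factor of mitosis genes, at 0.97. Origin genes counted 3 of 19 and condensin and cohesin genes 3 of 18, with Cdca5 (sororin, which protects cohesin) at 1.29.

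**Figure D4:**
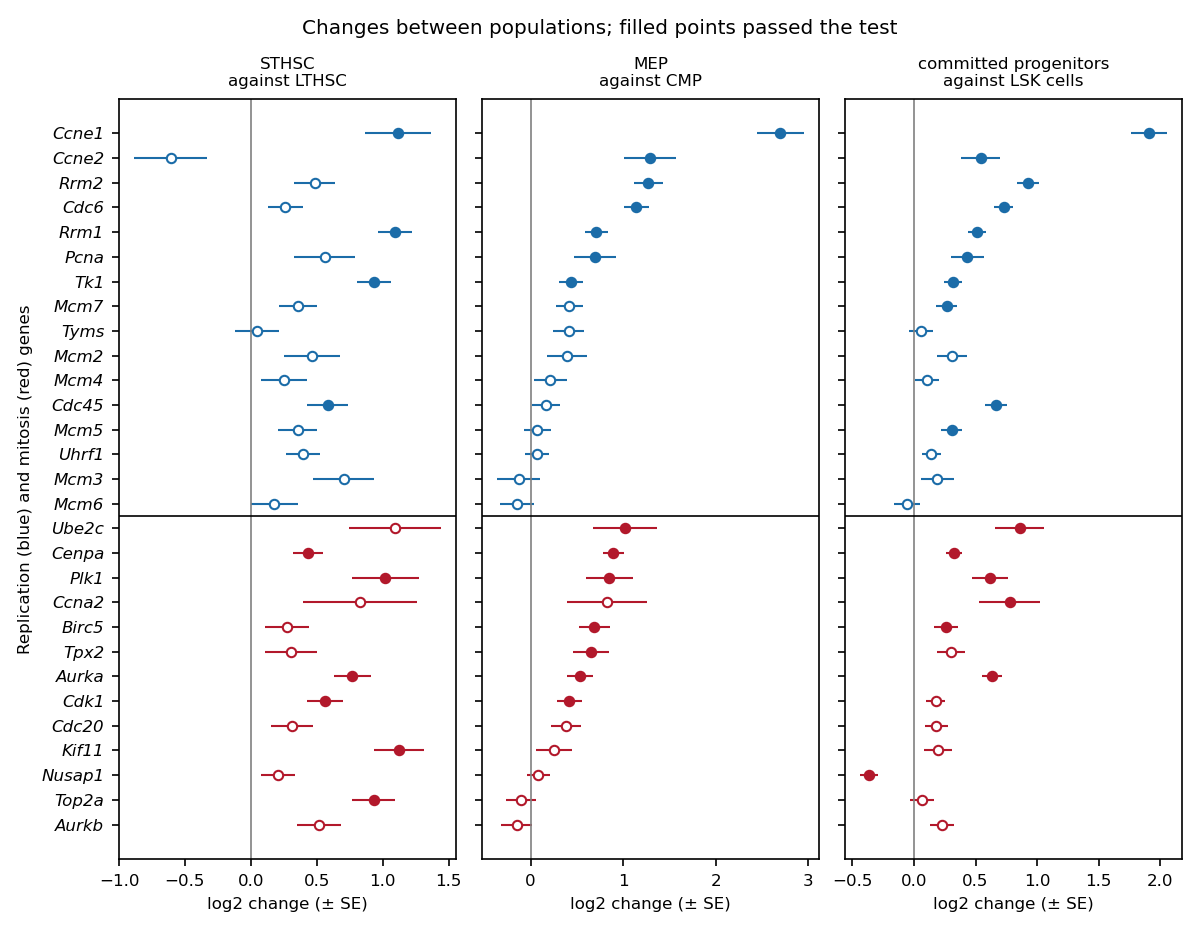
log2 change with its standard error (x axis) of each replication gene (blue) and mitosis gene (red), in STHSC against LTHSC, MEP against CMP and committed progenitors against LSK cells. Filled points passed the test (adjusted p under 0.05). Ccne2 lies left of 0 in the first panel and right of it in the others, and Mcm6 lies near 0 in all 3.

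In MPP, set against STHSC, 0 members rose and 2 fell, where 2.73% of all features rose and 2.66% fell. Cenpa was at 13.53 in A/- and 13.79 in +/+ MPP, against 14.15 and 14.25 in A/- and +/+ STHSC, and fell by 0.54 (SE 0.11, adjusted p = 0.0295 by limma). Tk1 was at 11.54 and 11.90 in A/- and +/+ MPP, against 12.29 and 12.25 in A/- and +/+ STHSC, and fell by 0.56 (SE 0.13, adjusted p = 0.0412). Of 3 further detected probes of these 2 genes, 2 had the same sign. The calls were lost without the A/- MPP array, and likewise without either STHSC array, while 4 members were called lower without the +/+ MPP array. The median change was 0.16 for replication and -0.16 for mitosis genes, a difference in sign that was not tested. Tyms (-0.64, adjusted p = 0.0562) and Birc5 (-0.53, adjusted p = 0.0999) came next and did not pass. Of the further pathway genes Pclaf rose by 0.74 in MPP, and Rb1 (-0.64), Cenpt (-0.59), a centromere protein, and Cdca3 (-0.52), a trigger of mitotic entry, fell. Erythroid markers had a median change of -1.55 in the same comparison, with 3 of 17 called lower, and markers of granulocyte-monocyte progenitors one of 1.43, with 3 of 13 called higher. Their part in it was not tested.

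CMP had no member called against MPP (0 of 29 called, 2.4% of all features, 4 members at an unadjusted p under 0.05). The smallest p belonged to Ccne1, at 0.81 (adjusted p = 0.138). Without the +/+ MPP array 1 member was called higher. GMP had no member called against CMP either, with 0% of all features called by limma, and 845 features but 0 members at an unadjusted p under 0.05. The member changes between GMP and CMP had a median of 0.05.

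Taking the committed progenitors together against LSK cells, 16 of 29 members rose and 1 fell, where 22.3% of all features rose and 23.6% fell. The limma test set the mean of 3 populations against that of 3 others, with n = 2 arrays per population. Its p-values measure how the A/- minus +/+ difference varied from population to population, after the mean difference was removed. They do not measure the spread among the populations of a class. Of the 16, 10 were replication and 6 mitosis genes. Ccne1 ranged from 7.76 to 10.83 with a median of 8.30 in committed progenitors, against 6.17 to 7.61 with a median of 7.31 in LSK cells (change 1.90, SE 0.15, adjusted p = 2.14e-05). Rrm2 ranged from 9.55 to 10.89 with a median of 9.84, against 8.75 to 9.54 with a median of 9.27 in LSK cells (change 0.93, SE 0.09, adjusted p = 8.38e-05). Cdc45 ranged from 10.66 to 10.99 with a median of 10.79, against 9.66 to 10.47 with a median of 10.29 in LSK cells (change 0.67, SE 0.09, adjusted p = 0.000458). In these 3 genes all 6 committed arrays lay above all 6 LSK arrays, a pattern of 2.74% of all features, and 1 member (Nusap1) had all 6 below, as did 5.22% of all features. The other 13 members that rose overlapped between the classes. Among them Aurka rose by 0.63, Plk1 by 0.62, Ccne2 by 0.54, Rrm1 by 0.51 and Pcna by 0.43, and Cenpa, Tk1, Mcm5, Mcm7 and Birc5 rose by between 0.26 and 0.32. The 12 members that did not pass had changes between -0.05 (Mcm6) and 0.31 (Mcm2).

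Ube2c ranged from 6.54 to 8.11 with a median of 7.28 in committed progenitors, against 5.76 to 7.28 with a median of 6.54 in LSK cells (change 0.86, SE 0.20, adjusted p = 0.00743). Ccna2 ranged from 6.32 to 7.82 with a median of 7.34, against 5.65 to 7.06 with a median of 6.41 in LSK cells (change 0.78, SE 0.25, adjusted p = 0.0295). Cdc6 ranged from 10.59 to 12.18 with a median of 10.98, against 10.17 to 10.70 with a median of 10.55 in LSK cells (change 0.73, SE 0.08, adjusted p = 0.000128). The high ends of these ranges came from MEP in all 3 genes. Without the MEP pair 5 members rose, and without the LTHSC pair 9 rose. With 75th-percentile scaling, where the median of all features moved to 0.27, 28 rose. Ccne1, Rrm2, Cdc6, Cdc45 and Aurka kept their call under each of the 14 alternative settings.

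Nusap1 was the member called lower, at 11.70 to 11.86 in committed progenitors, against 12.01 to 12.42 in LSK cells (change -0.36, SE 0.07, adjusted p = 0.00349). Its change turned to 0.22, without passing, when arrays were scaled on their 75th percentile, and its other 2 probes were at 0.20 and 0.10. Among the further pathway lists, set against 22.3% of all features higher and 23.6% lower, 16 of 19 origin genes, 15 of 27 kinetochore and checkpoint genes, 14 of 25 genes of the fork and nucleotide supply and 10 of 18 condensin and cohesin genes rose, with 0, 1, 1 and 1 lower. Recql4 (1.14), Dut (0.72), Zwilch (0.75) and Wapl (0.92) were among them. Spindle and cytokinesis genes counted 3 higher and 1 lower of 19, E2F and DREAM regulators 4 and 1 of 16, and mitotic entry and exit 7 and 1 of 17. Orc2, counted among the origin genes, and E2f8, among the E2F regulators, were detected on 3 committed arrays and 0 LSK arrays. These 2 genes passed the detection rule only through the class in which they were higher, so their calls lend the counts no support. In the same comparison 12 of 17 erythroid markers rose, with a median change of 1.45, and 16 of 18 neutrophil markers fell, with a median change of -3.68. Their part in it was not tested.

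The A/- genotype changed none of the 29 members detectably over the 6 populations (0 called by limma, n = 6 pairs), where 0.593% of all features were called. Their median difference between A/- and +/+ was -0.06 on the log2 scale (-0.03 for replication and -0.09 for mitosis genes), against 0.01 for all features. The differences ranged from -0.45 (Ccna2) to 0.23 (Mcm3). At an unadjusted p under 0.05 there was 1 member, Cdc6. It was at 10.17, 10.46, 10.63, 10.80, 10.59 and 11.91 in A/- LTHSC, STHSC, MPP, CMP, GMP and MEP, against 10.47, 10.70, 10.64, 11.0025, 10.97 and 12.18 in their +/+ partners. The A/- array was thus lower in 6 of 6 pairs, with the largest gap in GMP and nearly none in MPP, a direction that 3.87% of all features shared in all 6 pairs. The mean difference was -0.23 (SE 0.08, unadjusted p = 0.0143, adjusted p = 0.217), and a further Cdc6 probe was at 0.20.

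Ccna2 was at 5.65, 6.32 and 6.52 in A/- MPP, CMP and GMP, against 7.06, 7.31 and 7.38 in their +/+ partners. In LTHSC, STHSC and MEP it was at 6.06, 6.76 and 7.82 in A/-, against 5.83, 6.78 and 7.45 in +/+. Its A/- signal was lower in 4 of 6 pairs, and the mean of -0.45 did not pass. Mcm3 was at 10.17, 11.06, 11.76, 11.19, 11.07 and 11.03 in A/- LTHSC, STHSC, MPP, CMP, GMP and MEP, against 10.36, 10.87, 10.79, 11.09, 10.79 and 10.99 in +/+. It was higher in 5 of 6 pairs, with most of the difference in MPP. Among the further probes of members, 13 of 27 had the sign of the brightest probe, so the small genotype differences were not shared between probes.

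The genotype effect in committed progenitors minus that in LSK cells was called in 0 of 29 members, of which 0 had an unadjusted p under 0.05, where 0.00781% of all features were called. Within LSK cells alone 0 members were called (0% of all features) with 1 at an unadjusted p under 0.05, and within committed progenitors 0 (0.476% of all features) with 2. Neutrophil markers differed between A/- and +/+ by a median of -1.96 over the same 6 pairs, with 0.37 in LTHSC and -5.37 in MEP, and erythroid markers by 1.88 in GMP. The members' medians in the 6 pairs stayed between -0.23 and 0.07. Of the 141 genes tested in the 7 further pathway lists, 1 was called (0.709%), a share near the 0.593% of all features. Dbf4, which activates the origin-firing kinase Cdc7, was at 9.42, 10.42, 9.57, 9.79, 10.06 and 10.57 in A/- LTHSC, STHSC, MPP, CMP, GMP and MEP, against 9.83, 10.72, 10.53, 10.65, 11.04 and 11.36 in +/+. It was lower in A/- in all 6 pairs, fell by 0.72 (SE 0.11, adjusted p = 0.0320) and kept its call in 9 of 16 alternative settings. Without the STHSC, MPP, CMP, GMP or MEP pair its change stayed between -0.80 and -0.67 with adjusted p up to 0.146, and was no longer called. Smc2, at -1.04 (adjusted p = 0.0651), and Kif23, at -0.41 (adjusted p = 0.0803), did not pass.

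**Figure D5:**
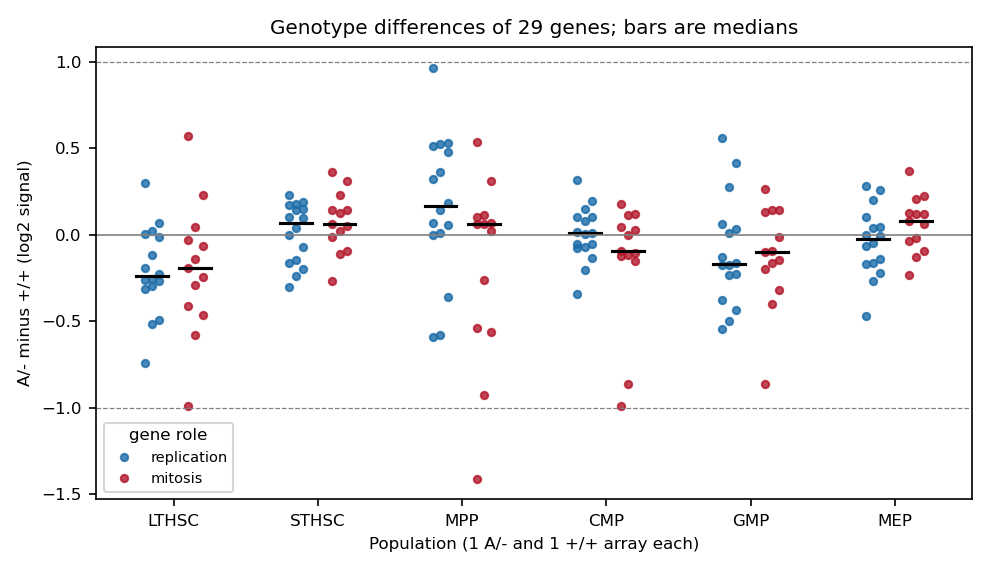
A/- minus +/+ log2 signal (y axis) of the 29 tested genes in each population (x axis), replication genes in blue and mitosis genes in red, bars at medians and dashed lines at 2-fold. In LTHSC 22 of the 29 points lie below 0, and the points spread most widely in MPP, where Ccna2 lies at -1.41 and Mcm3 at 0.97.

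Single pairs of arrays had no replicate check. In MPP 1 member differed at least 2-fold, against 6.29% of all features. This was Ccna2, which was not detected on the A/- array (5.65) and was at 7.06 on the +/+ array, at least 2.64-fold lower in A/-. In MPP the members also spread most, with an SD of 0.50 over the 29 differences, against 0.17 in STHSC and 0.19 in MEP. All features had an SD of 0.55 in MPP, below 0.60 in GMP and 0.66 in MEP and above 0.43 to 0.48 in the other populations. Their median absolute difference of 0.32 in MPP was the largest of the 6 pairs and the same as that of the members. There the helicase genes Mcm2 (0.51), Mcm3 (0.97), Mcm4 (0.53), Mcm5 (0.53), Mcm6 (0.48) and Mcm7 (0.14) were above 0, as was Top2a (0.54). Tyms, thymidylate synthase (-0.59), Pcna (-0.58), Birc5 (-0.56), Tpx2 (-0.54) and Ube2c (-0.93) were below 0. In the other 5 populations 0 members differed 2-fold, where 3.72% of all features did in LTHSC, 4.06% in STHSC and 2.98% in CMP, with 8.15% for GMP and 6.1% for MEP. The median member difference was largest in size in LTHSC (-0.23) and GMP (-0.14). It was 0.06 for the STHSC pair, 0.07 for MPP, 0 for CMP and -0.0038 for MEP.

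LTHSC gave the comparison of all 3 genotypes. Against +/+, the -/- array had 22 of 29 members below 0, with a median of -0.11, and the A/- array likewise 22 of 29, with a median of -0.23. Of all 12807 features, 6211 were below 0 in -/- and 6474 in A/-. Erythroid markers had medians of -1.38 in -/- and -1.47 in A/- against +/+, and their part in the members' difference was not tested. Both comparisons share the +/+ array. Against A/-, the -/- array had 22 members above 0, with a median of 0.13, where 6557 of all 12807 features were above 0. The A/- array is shared with the comparison of A/- against +/+. Ccne1 was not detected on the -/- array (5.27) and was at 6.17 in A/- and 6.66 in +/+, at least 2.28-fold lower in -/- than in +/+ and at least 1.62-fold lower than in A/-. It was the member with a 2-fold difference between -/- and +/+, where 3.4% of all features differed 2-fold, and 0 members reached it between -/- and A/- (3.76% of all features). Top2a was at 11.90 in -/-, against 11.18 in A/- and 11.24 in +/+, and Ube2c at 6.53 in -/-, against 6.33 and 5.76. Plk1 was at 10.65 in -/-, 10.04 in A/- and 11.03 in +/+. Members of both roles thus lay on either side of +/+ in the mutant arrays, and these values have no replicate.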

How the data were processed

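The deposited table held a bead signal per probe and array, and beside it a detection p-value, per the file headers. The authors deposited these intensities as not normalised. Signals were background-corrected from the detection p-values, quantile-normalised and put on a log2 scale with the neqc function of limma 3.58.1 (offset 16, R 4.3.3). The authors' deposited processed values were used as an alternative. They were taken as intensities and put on a log2 scale with the same offset of 16. In them LTHSC and the other 10 arrays were brought to common distributions as 2 separate sets. The labels and headers do not name the authors' software.

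Of 45281 probes, 34885 had 1 gene symbol in the platform annotation, 18 had several and 10378 were not listed. The brightest probe stood for a gene. Detection on at least 2 arrays left 12807 of 29453 features. Models with trended moderation (lmFit, eBayes) held genotype with population as a fixed block, or populations adjusted for genotype. They did not hold the -/- array, which was set beside single arrays. P-values were adjusted over all features (Benjamini-Hochberg, threshold 0.05). A transcript not detected in a group has a bound, taken against the higher of its own signal and the lowest detected signal. Single arrays counted as different at 2-fold, if the brighter was detected. Scripts were tested on simulated data.

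All members could be named in the text. Values per array are given for at most 6 members each way per comparison, ranked by change among those called. From each pathway list at most 4 genes each way were named, or those of smallest p where none was called. Members and lists were chosen with earlier results of these data known. Alternatives covered scaling, filters, offset, probe choice, moderation and leaving out arrays. The number of arrays limits the precision.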

Additional observations from a re-analysis of the deposited data

How the results depend on the processing

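With arrays scaled on their 75th percentile, the median change of all features moved to 0.27 in committed progenitors against LSK cells, 0.23 in STHSC against LTHSC, 0.31 in MEP against CMP and 0.30 in MEP against GMP. With that shift 28 members were called higher and 0 lower in committed progenitors, 26 higher in STHSC, 24 higher in MEP against CMP, 19 higher in MEP against GMP, and 1 lower in MPP against STHSC. Over all features, calls higher against lower were then 5620 against 2069 in committed progenitors (main 2851 against 3026), 3406 against 1193 in STHSC (723 against 706), 3491 against 1888 in MEP against CMP (1850 against 2320) and 3266 against 1953 in MEP against GMP (1939 against 2324). Cyclic loess gave 2087 against 3617 in committed progenitors. Lower calls in MPP against STHSC numbered 1 with no filter and 0 with cyclic loess, the mean of all detected probes or untrended moderation. With no filter 9 members rose in MEP against CMP, untrended moderation gave 6 higher in STHSC, and the mean of probes 0 lower in committed progenitors.

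Signs turned, against the main direction, under the 75th percentile in committed progenitors for Nusap1 (0.22), Rfc2 (0.38), Cenpt (0.0532), Smc1a (0.38) and Pbk (0.40). With the mean of all detected probes they turned for Tfdp2 (0.10) and Smc1a (0.15) there, and for Kif23 in MEP against CMP (0.0318) and against GMP (0.0545). The cause was not tested.

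Leaving out 1 array or 1 pair gave 5 to 20 members higher in committed progenitors, 0 to 10 in STHSC, 0 to 2 higher and 0 to 4 lower in MPP, 0 to 1 higher in CMP against MPP, 5 to 9 in MEP against CMP and 5 to 6 in MEP against GMP. Of 256 recomputed counts of called members, 226 stayed within 1.5 times. Counts that were 0 in the main setting and stayed 0 are among these 226. The share is therefore no measure of how stable the counts above 0 were. Of 708 recomputed member values, 565 kept direction and call, and 142 kept direction only. The genotype counts over 6 pairs were 0 members under each alternative run. The authors' processed values and quantiles within the 2 sets of arrays were not run across LTHSC and other arrays, which they leave on different scales by construction.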
